A study of Mus musculus with 6 samples.

Results

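The 10 genes described here make, remove or sense extracellular purines: the ectoenzyme genes Entpd1 and Nt5e, the deaminase gene Ada, the adenosine receptor genes Adora2a, Adora2b and Adora3, the ATP-gated channel genes P2rx4 and P2rx7, and the nucleotide receptor genes P2ry2 and P2ry6. They were taken by symbol from the deposited table of estimated counts, which held all 10 of them among its 21847 genes. The table covers 6 RNA-seq libraries of mouse spleen cells that had been sorted and that the submitters call macrophages. Splenocytes without T cells had been cultured for 3 days on human cord tissue mesenchymal stromal cells (MSCs) loaded with Qtracker, a fluorescent particle. Cells in which the label was found, taken to have engulfed MSCs (positive, 3 libraries), are compared with cells without it (negative, 3 libraries). Both groups came from the same kind of co-culture, so neither is a control without MSCs, and the labels give no mouse strain, age or genotype. The sort took CD11b positive cells without Ly6G by one label and without Ly6C by another. The replicates are described as paired, with no word on separate animals, so the p-values cover only the variation among these 6 libraries, part of which may be technical.

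ATP leaves stressed and dying cells and acts as a signal on the cells around them. The ectoenzyme CD39, encoded by Entpd1, cuts ATP and ADP to AMP, and CD73, encoded by Nt5e, turns AMP into adenosine. Adenosine deaminase, encoded by Ada, converts adenosine to inosine. In macrophages, nucleotide receptors are known for triggering migration, engulfment and inflammasome activation, whereas adenosine acting through Adora2a and Adora2b raises cyclic AMP and dampens inflammatory cytokine release.

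The libraries held 33943090 to 55506993 estimated counts. Values are given as CPM, counts relative to the library total as scaled by the trimmed mean of M-values (TMM). Negative replicate 1 stood apart from negative replicates 2 and 3: over genes with 500 to 2000 counts the median absolute log2 difference was 0.454 and 0.449 from them and 0.0549 between them. Positive replicate 1 likewise differed by 0.286 and 0.296 from positive replicates 2 and 3, which differed by 0.0855. Over the whole series 2707 of 14605 tested genes (18.5%) were higher and 2384 (16.3%) lower in positive libraries at an adjusted p under 0.05 (edgeR quasi-likelihood test, replicate number as block, Benjamini-Hochberg over all tested genes). The median log2 fold change of all tested genes was -0.01. The macrophage marker list summed to 1045 CPM in negative replicate 1, to 13230 and 13110 CPM in negative replicates 2 and 3, and to 28100 to 38920 CPM in positive libraries. Of its 10 tested genes 7 rose and 0 fell, and Cd163 and Vsig4 did not pass the count filter, each with at least 1 library at 0. Most of each sum was Lyz2 alone, which was not called (edgeR adjusted p = 0.166). Lyz2 stood at 712, 11500 and 11400 CPM in negative and at 19300, 24600 and 27100 CPM in positive replicates 1, 2 and 3. The neutrophil list summed to 2741 CPM in negative replicate 1, to 71400 and 71590 CPM in negative replicates 2 and 3, and to 1223 to 1481 CPM in positive libraries, with 9 of 10 genes lower. Most of each positive sum was Mmp8 (1000, 694 and 783 CPM), the gene not called (edgeR adjusted p = 0.573). The eosinophil list summed to 33.57 to 62.97 CPM in negative and 90.35 to 343.7 CPM in positive libraries. Of its 8 tested genes 4 were higher and 2 lower. The B cell list summed to 18250, 7339 and 7401 CPM in negative replicates 1, 2 and 3 and to 749.1 to 818.6 CPM in positive libraries, with 9 of 10 lower. Beside the macrophage list, all negative libraries therefore held strong B cell signal. Strong neutrophil signal was held by negative replicates 2 and 3, and far less by negative replicate 1. In such bulk samples, fewer cells of a type and less RNA per cell cannot be told apart.

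Among the 10 genes, 4 rose in positive libraries (Entpd1, P2rx4, P2rx7 and P2ry2), against 18.5% of all tested genes, and 1 fell (Ada), against 16.3%. The other 5 did not pass the test. The median log2 fold change of all 10 was 1.27. Every one of the 10 passed the count filter. In 6 of the 10 all positive libraries lay above all negative libraries (30% of all tested genes did), in 3 all lay below (29.4%), and for Adora3 the groups overlapped. The 5 edgeR calls needed both replicate 2 and replicate 3: without replicate 2, edgeR called 0 of the 10 genes, where it called 0.917% of all tested genes higher and 1.18% lower. Without replicate 3 it called 0 of the 10 and 0% of all genes. In both settings 5 of the 10 were higher and 2 lower at an unadjusted p under 0.05. Over all tested genes, 2218 were higher and 2235 lower of 14831 at that level without replicate 2. Without replicate 3 the counts were 2064 and 2145 of 14803. DESeq2 without replicate 3 called 5 higher and 2 lower, against 9.98% and 11.8% of all tested genes, and limma-voom 3 and 0, against 3.7% and 4.18%. The labels do not say whether replicates 2 and 3 are separate animals, and the calls count them as 2 samples. With these 2 summed into 1 library per group, edgeR called 0 of the 10 and 0% of all genes. At an unadjusted p under 0.05, 5 of the 10 were higher and 2 lower, beside 2221 and 2267 of all 15570 tested genes. On those sums DESeq2 called 5 higher and 2 lower, against 10.2% and 12.2% of all tested genes, and limma-voom 3 and 0, against 4.27% and 4.75%. Without replicate 1, edgeR called 5 higher and 4 lower, against 37.1% and 35.8%, and without the replicate block 5 and 3, against 19.9% and 20.9%. With all replicates and the block, DESeq2 called 5 higher and 3 lower, against 23.4% and 25.1%. Limma-voom called 5 and 1, against 20.6% and 19.5%, and limma on the authors' normalized counts 5 and 1, against 17.2% and 17.3%. With library totals alone as scaling, edgeR called 4 and 2, against 10.8% and 22.7%.

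**Figure D1:**
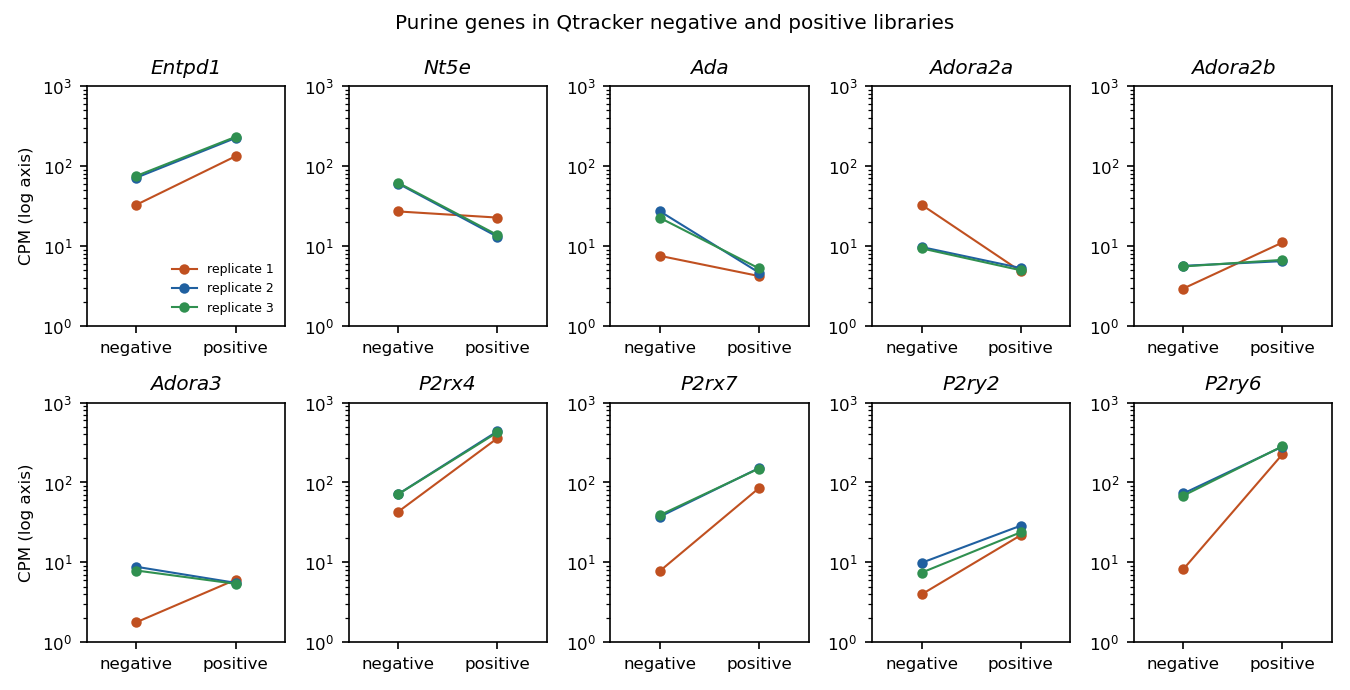
CPM (log axis) of the 10 purine genes in each library, negative on the left and positive on the right of each panel, with a line joining libraries of the same replicate number. Entpd1, P2rx4, P2rx7, P2ry2 and P2ry6 are higher in every positive library than in any negative one, and so, by a narrow gap, is Adora2b. Adora2a is set apart by negative replicate 1 at 32.72 CPM.

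The channel genes P2rx4 and P2rx7 lie next to each other in the mouse genome and both rose, and with Entpd1 and Ada they make up 4 of the 5 called genes. Their upstream sequences are shown because the first 2 rose together and the other 2 are the called enzymes at either end of the adenosine pathway. They come from RefSeq (build GRCm38.p6) and end just before the first exon in GENCODE M21, which for P2rx7 begins 16 bases before the RefSeq start, so that its window holds 234 bases and the others 250; of the 10 genes, 8 had an entry in the table used. Each is written 5′ to 3′ on the gene's strand, with matches to any of 6 motifs, searched on both strands, in capitals. The motifs were GGGCGG (GC box), GAGGAA (a core bound by ETS factors such as PU.1), TGACG (the core of the cyclic AMP response element), ACGTG (a core bound by hypoxia-inducible factors), CACGTG (the E-box, which contains ACGTG) and TGANTCA (AP-1).
P2rx7, chr5:122643677-122643910, plus strand: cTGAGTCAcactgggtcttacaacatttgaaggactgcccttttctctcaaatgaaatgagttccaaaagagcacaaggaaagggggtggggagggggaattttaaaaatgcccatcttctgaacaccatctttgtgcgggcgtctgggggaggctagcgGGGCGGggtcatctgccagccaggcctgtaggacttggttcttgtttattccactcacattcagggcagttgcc
P2rx4, chr5:122707294-122707543, plus strand: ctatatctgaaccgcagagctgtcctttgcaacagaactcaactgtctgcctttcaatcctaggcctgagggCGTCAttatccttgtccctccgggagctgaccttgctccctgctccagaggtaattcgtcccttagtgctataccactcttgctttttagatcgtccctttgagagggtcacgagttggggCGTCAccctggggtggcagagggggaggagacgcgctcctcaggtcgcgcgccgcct
Entpd1, chr19:40612116-40612365, plus strand: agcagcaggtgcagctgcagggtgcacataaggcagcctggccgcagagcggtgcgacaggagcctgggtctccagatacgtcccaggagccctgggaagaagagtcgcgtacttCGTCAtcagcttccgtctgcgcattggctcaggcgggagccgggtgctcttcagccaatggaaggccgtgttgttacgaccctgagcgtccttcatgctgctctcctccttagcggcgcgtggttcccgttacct
Ada, chr2:163750240-163750489, minus strand: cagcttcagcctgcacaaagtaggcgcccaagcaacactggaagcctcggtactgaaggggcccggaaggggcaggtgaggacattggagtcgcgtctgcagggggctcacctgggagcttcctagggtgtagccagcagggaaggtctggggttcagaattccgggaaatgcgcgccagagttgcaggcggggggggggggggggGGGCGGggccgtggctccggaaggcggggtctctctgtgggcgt

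Positions are counted from the end of each printed window to the first base of the match. P2rx4 held the cyclic AMP core 178 and 57 bases before that end, and Entpd1 held it 135 bases before. That core was found in 17.8% of all 32851 RefSeq promoter windows of 250 bases. P2rx7 held an AP-1 match 233 bases before the end of its window and a GC box 74 bases before it, against 6.45% and 30.4% of all windows shortened to 234 bases. Ada held a GC box 44 bases before the end, against 32.7% of all windows of 250 bases. No motif searched was present in all 4 printed windows. Entpd1 had a second RefSeq start, whose window is not printed. That window held the ETS core 235 and 227 bases before the start, against 23.3% of all windows of 250 bases. It also held the cyclic AMP core 183 bases before that start. The 16 bases left out for P2rx7 held a further GC box, 11 bases before its RefSeq start. A match is only a run of letters, and no binding was measured here.

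Entpd1 (chromosome 19, 40612366 to 40741602, mm10) stood at 32.74, 71.45 and 75.13 CPM in negative replicates 1, 2 and 3 and at 132.2, 223.6 and 231.1 CPM in the positive ones. Replicate 1 was the lowest of both groups, and the lowest positive library was above the highest negative one. The mean went from 59.8 ± 23.5 to 196 ± 55.1 CPM (SD, n = 3). This was 3.39-fold, or 1.76 ± 0.14 (standard error) as log2 fold change (edgeR adjusted p = 0.00965). The change was of like size in all pairs, at 2.01, 1.65 and 1.62 in pairs 1, 2 and 3.

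Nt5e (chromosome 9, 88327197 to 88372092), the next enzyme of the pathway, had values in the opposite direction but did not pass the test. It stood at 27.01, 60.3 and 61.66 CPM in negative replicates 1, 2 and 3 and at 22.63, 13.08 and 13.73 CPM in the positive ones. All positive libraries were below all negative ones, but replicate 1 differed little between the groups. The log2 fold change was -1.56 ± 0.50 (edgeR adjusted p = 0.0826), with -0.26 in pair 1 against -2.20 and -2.16 in pairs 2 and 3. It was called lower without replicate 1 (-2.17, adjusted p = 4.08e-06), by DESeq2 (adjusted p = 0.00466), with library totals alone as scaling (0.0414) and without the block (0.0205). CD73 is also a surface marker of human MSCs, which the positive cells were taken to have engulfed. Mouse genes whose human counterparts MSCs express were therefore checked. That mesenchymal list summed to 19.9 to 48.73 CPM in negative and 43.57 to 77.3 CPM in positive libraries. Of its 8 tested genes 1 rose (Eng) and 1 fell (Col5a1). Of its 16 genes 8 did not pass the filter, with Col6a1, Col5a2 and Pdgfra at 0 in every negative library. Most of each positive sum was Eng alone, at 66.9, 33.3 and 32.1 CPM in replicates 1, 2 and 3, against 10.1, 10.9 and 9.95 CPM in negative ones. Col5a1 stood at 5.18, 26.2 and 26.3 CPM in negative and at 0.423, 0.306 and 0.338 CPM in positive replicates 1, 2 and 3. The part of this list in the Nt5e values was not tested.

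Entpd1 and Nt5e can be set against each other within each library, per kilobase of merged exons, since a longer gene collects more counts. The ratio of Entpd1 to Nt5e was 1.87, 1.83 and 1.88 in negative replicates 1, 2 and 3. It was 9.01, 26.4 and 25.9 in positive replicates 1, 2 and 3. The negative libraries were thus nearly equal in this ratio, although negative replicate 1 held both genes at less than the level of the others, and the positive libraries were all above them.

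Ada (chromosome 2, 163726584 to 163750239) was the 1 called gene that fell. Its negative libraries held 7.521, 27.14 and 22.47 CPM and its positive ones 4.203, 4.644 and 5.24 CPM. Positive libraries were close to each other and below all negative ones, of which replicate 1 was the lowest. The mean went from 19.0 ± 10.2 to 4.70 ± 0.52 CPM (SD, n = 3), and the log2 fold change was -1.84 ± 0.41 (edgeR adjusted p = 0.0403). The difference was -0.83 in pair 1 and -2.54 and -2.09 in pairs 2 and 3. Negative replicates 2 and 3, where Ada and Nt5e were highest, were also those with 71400 and 71590 CPM of neutrophil markers; the part of this in either result was not tested.

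**Figure D2:**
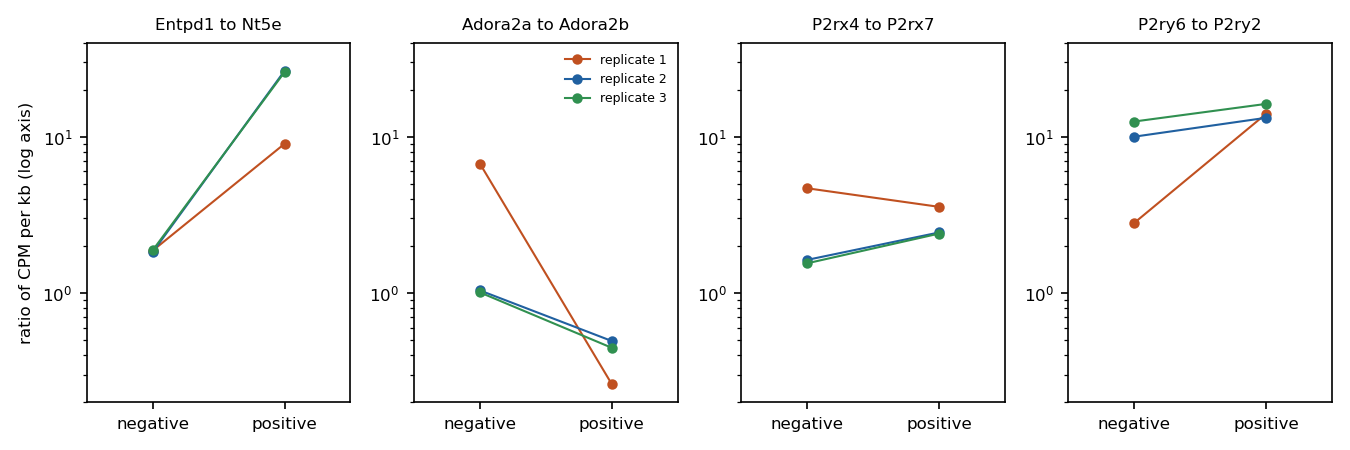
Ratio of 2 genes within each library (CPM per kilobase of merged exons, log axis), negative on the left and positive on the right, with a line for each replicate number. Entpd1 to Nt5e lies between 1.83 and 1.88 in negative libraries and between 9.01 and 26.4 in positive ones.

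None of the 3 adenosine receptor genes passed the test. Adora2a (chromosome 10, 75316877 to 75334784) encodes a high-affinity adenosine receptor of lymphocytes and myeloid cells. It stood at 32.72, 9.696 and 9.325 CPM in negative replicates 1, 2 and 3 and at 4.811, 5.295 and 4.965 CPM in the positive ones. The positive libraries were nearly equal and below all negative ones, of which replicate 1 was more than 3 times the others. The log2 fold change was -1.50 ± 0.49 (edgeR adjusted p = 0.0859), at -2.75 in pair 1 and -0.87 and -0.90 in pairs 2 and 3. It was called lower without replicate 1 (-0.88, adjusted p = 0.000845), by DESeq2 (0.00753) and without the block (0.0395). In negative replicate 1 the T cell list summed to 232.6 CPM, against 48.39 and 50.83 CPM in negative replicates 2 and 3 and 15.59 to 19.83 CPM in positive libraries, with 9 of 10 genes lower. The NK cell list summed to 88.39, 14.71 and 13.99 CPM in negative replicates 1, 2 and 3 and to 0.6925 to 3.489 CPM in positive libraries, with 7 of 8 tested genes lower. The part of these lymphocyte markers in the Adora2a values was not tested.

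Adora2b (chromosome 11, 62248984 to 62266453) encodes a receptor of lower affinity for adenosine. Its values were 2.935, 5.643 and 5.543 CPM in negative and 11.05, 6.456 and 6.698 CPM in positive replicates 1, 2 and 3. The groups did not overlap, but the gap was narrow in pairs 2 and 3, with log2 differences of 0.19 and 0.27 against 1.90 in pair 1. The fitted value was 0.78 ± 0.45 (edgeR adjusted p = 0.243), and no alternative called it. The ratio of Adora2a to Adora2b per kilobase was 6.72, 1.04 and 1.01 in negative replicates and 0.262, 0.494 and 0.447 in positive ones. In each positive library Adora2b was therefore the higher of the pair, and in each negative library Adora2a was at least its equal.

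Adora3 (chromosome 3, 105870858 to 105908926) encodes a receptor that inhibits cyclic AMP formation and is known from mast cells. It was at 1.788, 8.823 and 7.928 CPM in negative and at 6.08, 5.56 and 5.409 CPM in positive replicates 1, 2 and 3. Its groups overlapped, with negative replicate 1 the lowest library of all. The log2 fold change was 0.13 ± 0.62 (edgeR adjusted p = 0.88), and it turned to -0.60 and was called without replicate 1 (adjusted p = 0.00512). The basophil and mast cell list likewise summed to 160 CPM in negative replicate 1 and to 797.8 and 791.5 CPM in replicates 2 and 3, and to 6.477 to 17.96 CPM in positive libraries. In that list 8 of 8 tested genes fell, and the mast cell protease genes Cma1 and Mcpt4 did not pass the filter, with Mcpt4 at 0 in 5 libraries. Their part in the Adora3 values was not tested. Adora3 shares 779 exon bases on the same strand with Tmigd3, which was not analysed here, so its counts may hold reads of both.

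P2rx4 (chromosome 5, 122707544 to 122729738) encodes a channel that sits largely in lysosomes of macrophages and opens to ATP. It had the lowest p of the 10 genes. Negative replicates 1, 2 and 3 held 43.02, 71.5 and 71.22 CPM and positive ones 356.4, 435.2 and 422.3 CPM. Every positive library was far above every negative one, and replicate 1 was the lowest of each group. The mean went from 61.9 ± 16.4 to 405 ± 42.3 CPM (SD, n = 3). This was 6.69-fold, or 2.74 ± 0.17 as log2 fold change (edgeR adjusted p = 0.00719), with 3.05, 2.60 and 2.57 in pairs 1, 2 and 3.

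P2rx7 (chromosome 5, 122643911 to 122691432) encodes the ATP channel known for inflammasome activation and for opening a large pore. It stood at 7.819, 37.35 and 39.06 CPM in negative and at 85.12, 151.4 and 149.5 CPM in positive replicates 1, 2 and 3. The groups were well apart, and replicate 1 was low in both. The log2 fold change was 2.45 ± 0.39 (edgeR adjusted p = 0.0228), larger in pair 1 (3.44) than in pairs 2 and 3 (2.02 and 1.94).

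P2ry2 (chromosome 7, 100996568 to 101012866) encodes a receptor for ATP and UTP through which phagocytes find dying cells. Its values were 3.99, 9.898 and 7.455 CPM in negative and 21.89, 28.82 and 23.83 CPM in positive replicates 1, 2 and 3. The lowest positive library was above the highest negative one. It rose from 7.11 ± 2.97 to 24.9 ± 3.58 CPM (SD, n = 3), by 1.89 ± 0.24 on the log2 scale (edgeR adjusted p = 0.0163), with 2.44, 1.54 and 1.67 in pairs 1, 2 and 3.

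P2ry6 (chromosome 7, 100937630 to 100974649), the receptor for UDP, is known from microglia as a trigger of phagocytosis. It had the largest fitted difference of the 10 genes but missed the threshold. Negative replicates 1, 2 and 3 held 8.232, 72.84 and 68.41 CPM and positive ones 225.4, 280.7 and 283.7 CPM. The positive libraries were alike and all above the negative ones, among which replicate 1 was far below the rest. The log2 fold change was 2.86 ± 0.75 (edgeR adjusted p = 0.0553), at 4.77 in pair 1 and 1.94 and 2.05 in pairs 2 and 3. It was called higher without replicate 1 (2.01, adjusted p = 2.31e-06), by DESeq2 (4.71e-05), by limma-voom (0.0369), on the authors' normalized counts (0.0386) and without the block (0.0457). Negative replicate 1, the lowest for P2ry6, P2rx7 and P2rx4, was also the library with 1045 CPM of macrophage markers against 13230 and 13110 CPM. Most of these sums was Lyz2 (712 against 11500 and 11400 CPM), though the other tested genes of the list were also lowest in that library. The part of these markers in the fold changes was not tested. Without replicate 1 the log2 fold changes were 2.01 for P2ry6, 1.99 for P2rx7, 2.60 for P2rx4 and 1.64 for Entpd1.

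**Figure D3:**
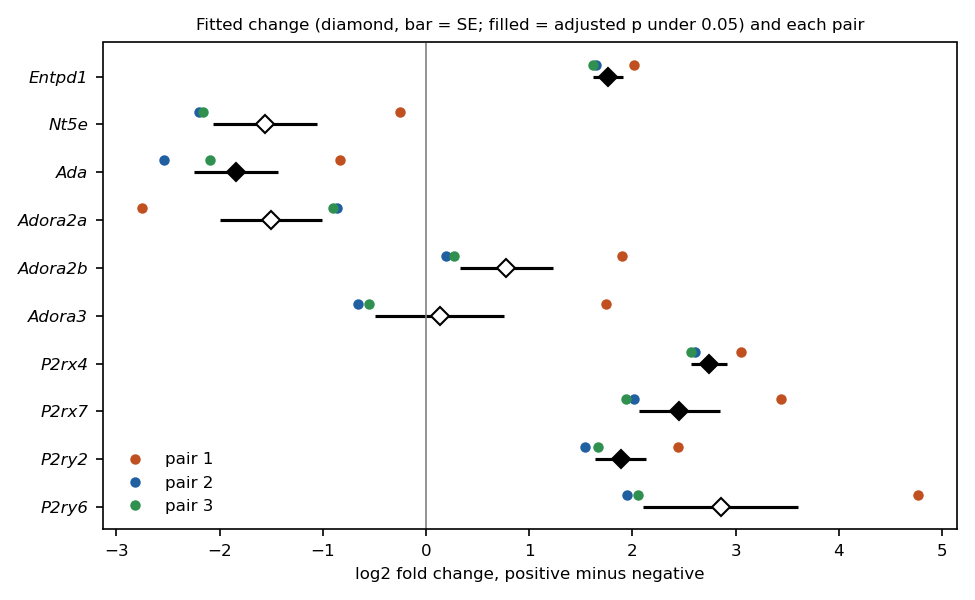
Fitted log2 fold change of each gene (diamond, filled where the adjusted p was under 0.05, bar for the standard error) and the difference in each pair (coloured points). Pair 1 stands apart from pairs 2 and 3 for P2ry6 (4.77 against 1.94 and 2.05), Nt5e, Adora2a, Adora2b and Adora3. The same holds for the called genes Ada and P2rx7 and, by less, P2ry2. For Entpd1 and P2rx4 pair 1 lies near pairs 2 and 3.

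Compared per kilobase of merged exons, the nucleotide receptor genes P2ry6 and P2rx4 had the highest levels of the 10 in positive libraries. P2ry6 came first at 91.2 ± 11.4 CPM per kilobase (SD, n = 3), followed by P2rx4 at 57.6 ± 6.05, Entpd1 at 35.1 ± 9.87 and P2rx7 at 21.6 ± 6.30. P2ry2 (6.33 ± 0.91) and Adora2b (4.37 ± 1.40) followed, and Ada, Nt5e, Adora2a and Adora3 were lowest, at 2.35 to 1.52 CPM per kilobase. Neighbours in this order whose ranges overlapped were Entpd1 and P2rx7, P2ry2 and Adora2b, and each adjacent pair among the last 4. In negative libraries the order was less sharp, and each gene's range overlapped that of the next. P2ry6 was again first (17.2 ± 12.5 CPM per kilobase), then Entpd1 (10.7 ± 4.22), Ada (9.52 ± 5.13) and P2rx4 (8.81 ± 2.33), with P2ry2 (1.81 ± 0.75) and Adora3 (1.66 ± 1.03) last.

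The channel genes and the receptor genes each form a pair of genomic neighbours. P2rx7 and P2rx4 lie on the plus strand of chromosome 5, 16111 bases apart, and P2ry6 and P2ry2 on the minus strand of chromosome 7, 21918 bases apart, each with 0 protein-coding genes between them. Both members of the first pair rose, which was so for 5.67% of 4196 adjacent same-strand protein-coding pairs that were tested. In the second pair P2ry2 rose and P2ry6 missed the threshold. Of the 7 other tested protein-coding genes within about 200 kb of P2rx7 and P2rx4, 1 was called, the calcium pump gene Atp2a2 (1.27 ± 0.14, edgeR adjusted p = 0.0139). The nearest were Camkk2 downstream (0.27, adjusted p = 0.111) and Ift81 upstream (0.19, adjusted p = 0.639). Near P2ry6 and P2ry2, Relt was lower (-0.86 ± 0.10, adjusted p = 0.0145), while Fchsd2 (-0.60, 0.385) and Fam168a (0.22, 0.206) did not pass.

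**Figure D4:**
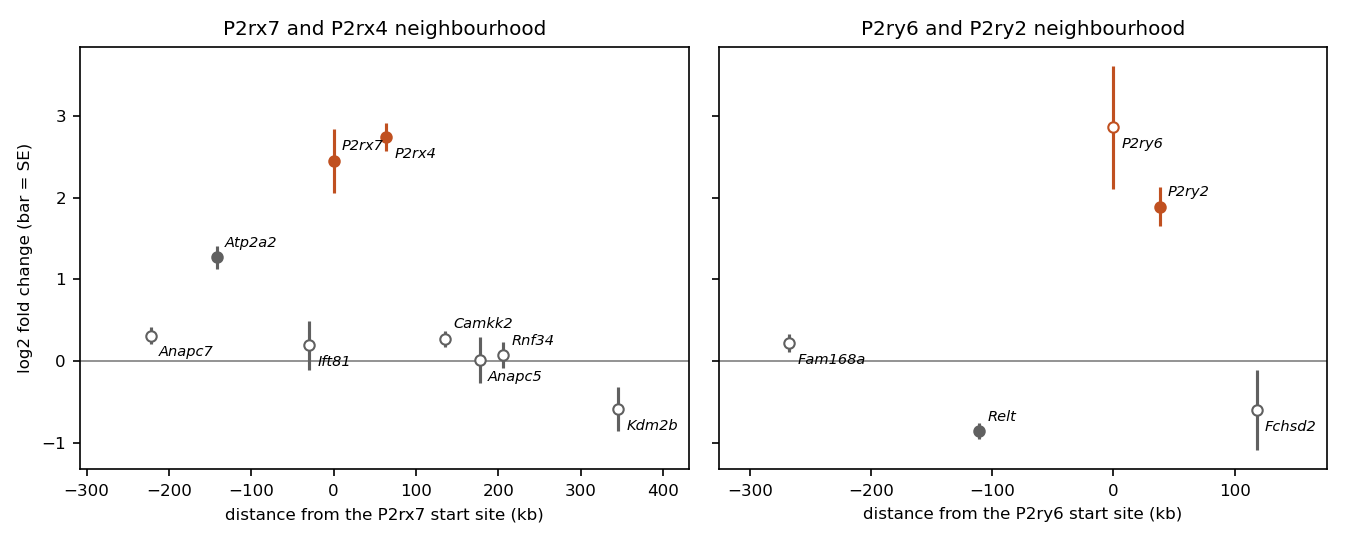
Log2 fold change (bar for the standard error, filled where the adjusted p was under 0.05) of tested protein-coding genes against the distance of their start from that of P2rx7 (left) or P2ry6 (right), in kb. The orange purine receptor genes lie between 1.89 and 2.86, and the other genes between -0.86 and 1.27.

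The wider purine system was described from lists of enzymes, transporters, receptors and release channels. Without the 10 genes, 51 of its members were tested; 5 rose and 11 fell, against 18.5% and 16.3% of all tested genes, and the median log2 fold change was -0.16. Of the 6 tested nucleoside transporter genes 2 rose and 2 fell. The equilibrative transporter gene Slc29a1 stood at 18.2, 20.4 and 22.5 CPM in negative replicates 1, 2 and 3 and at 97.0, 116 and 114 CPM in positive ones (2.42 ± 0.11, edgeR adjusted p = 0.00585). Its lysosomal relative Slc29a3 also rose (1.49 ± 0.11, adjusted p = 0.00874). The 2 tested genes of sodium-coupled concentrative transporters fell, with Slc28a2 at -2.13 ± 0.21 (adjusted p = 0.0115) and Slc28a3, at most 1.29 CPM in any library, at -3.47 ± 0.68 (0.0319). The other 2, both of the equilibrative family, were not called. Slc29a4 had the lowest fitted value of the 6 (-4.19 ± 1.33, adjusted p = 0.0798), with all positive libraries below all negative ones. Its levels were low, at 4.36, 1.59 and 1.57 CPM in negative and 0, 0.265 and 0.127 CPM in positive replicates 1, 2 and 3. Slc29a2 was at 0.74 ± 0.31 (0.134).

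Of 13 tested ectonucleotidase genes 1 rose and 3 fell, beside 18.5% and 16.3% of all tested genes. Entpd1 was the 1 that rose, and the 3 that fell were Entpd5, an enzyme of the endoplasmic reticulum (-1.49 ± 0.12), Enpp4 (-1.56 ± 0.33) and Alpl, the tissue-nonspecific alkaline phosphatase, which can also make adenosine from AMP (-3.80 ± 0.67). Their adjusted p by edgeR were 0.00909, 0.0373 and 0.0267. Of 17 tested genes of adenosine removal and purine salvage, Hprt, which recovers hypoxanthine and guanine, rose by 0.89 ± 0.14. Beside Ada, Dpp4 (-3.47 ± 0.47), a surface peptidase of lymphocytes, and Ahcy (-0.60 ± 0.13), which splits S-adenosylhomocysteine into adenosine and homocysteine, fell. Among 8 tested release genes, the vesicular nucleotide transporter gene Slc17a9 fell by 1.87 (-1.87 ± 0.12, adjusted p = 0.0073), and Lrrc8b, a volume-regulated channel subunit, rose by 1.85 ± 0.28 (0.0212).

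Among the other receptors, P2rx5, at most 2.18 CPM in any library, fell (-3.44 ± 0.38, edgeR adjusted p = 0.0131). P2rx1 (-1.61, 0.203) and P2rx3 (-2.46, 0.0814), the latter at most 1.26 CPM, did not pass, and P2rx6 did not pass the count filter. P2ry14, a receptor for UDP-glucose, rose (1.91 ± 0.31, adjusted p = 0.0229) from at most 1.46 CPM to at least 3.08 CPM. P2ry10 (-3.52 ± 0.51, adjusted p = 0.0196) and P2ry10b (-1.62 ± 0.17, 0.0122), lysophospholipid receptor genes of lymphocytes, fell; the B cell list, with 9 of 10 genes lower, moved with them, and its part was not tested. The ADP receptor genes P2ry1 (-1.56, 0.0678), P2ry12 (2.17, 0.215) and P2ry13 (1.52, 0.156) did not pass, nor did Gpr34 (-1.13, 0.118). P2ry4 did not pass the count filter. Of the 5 tested channel genes 2 rose (P2rx4 and P2rx7) and 1 fell, and of the 9 tested genes on the P2Y list 2 rose (P2ry2 and P2ry14) and 2 fell, beside 18.5% and 16.3% of all tested genes.

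**Figure D5:**
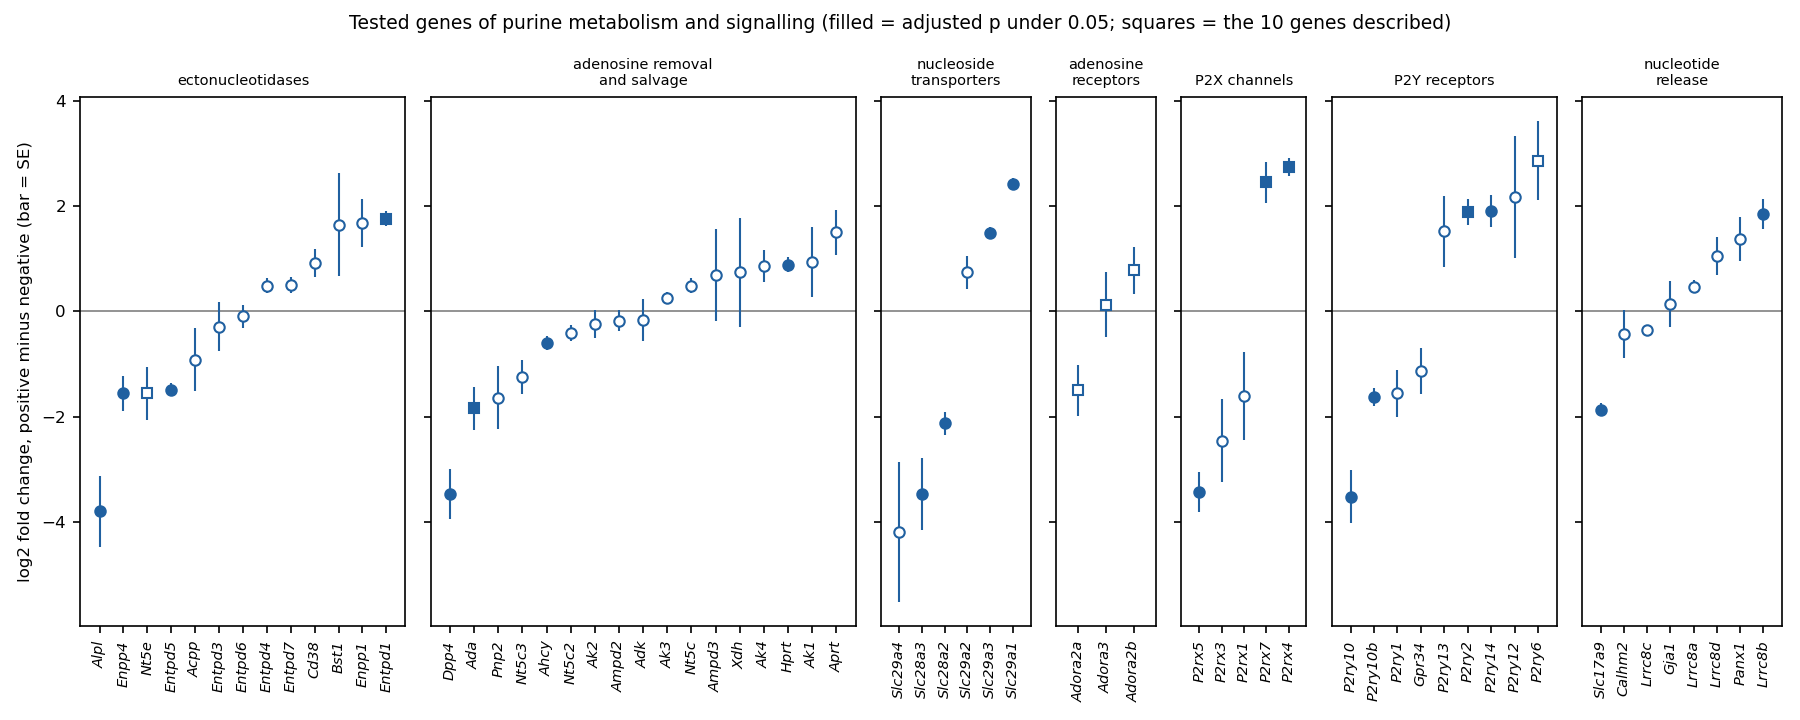
Log2 fold change of each tested gene of 7 purine lists (bar for the standard error, filled where the adjusted p was under 0.05, squares for the 10 genes described). Among the transporters Slc29a1, Slc29a2 and Slc29a3 lie above 0 and Slc28a2, Slc28a3 and Slc29a4 below, and P2rx4 and P2rx7 are the 2 channel genes above 0.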

How the data were processed

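RNA from 6 sorted libraries, 3 per group, had been sequenced from a stranded kit, per the labels' protocols. The authors deposited estimated counts per gene as whole numbers; FastQC, Salmon and mm10 are named in the submitters' processing notes. Annotation, versions and use of strand are not given in the sources used here. A second table deposited by the authors holds normalized counts, a signal made from the raw counts with a scaling that varies over genes and libraries and is not explained. It served only as an alternative, as log2(value + 1).

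Missing symbols (5210) and gene positions came from GENCODE M21 (same assembly), which held 21625 of the identifiers. filterByExpr (minimum count 10, minimum total 15) left 14605 genes, which were scaled by TMM and tested with edgeR 4.0.16 (R 4.3.3, quasi-likelihood F test, replicate number as a block, adjusted p under 0.05). Standard errors came from the F statistic, and pair differences used log2 CPM with a prior count of 2. Levels per kilobase used merged exon lengths, not the authors' effective lengths. The pipeline was tested on simulated data.

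The series' design text gives the pairing; deviations of same-numbered libraries correlated at 0.198, 0.077 and 0.158 across genes, so the data alone did not establish it. The 10 genes, the purine lists and the marker lists were chosen with earlier results of these data known. Named from the lists are the called genes and every receptor; Atp2a2, Relt and the other neighbouring genes were chosen by position after the values were seen. Alternatives were median-of-ratios scaling, library totals, no filter, DESeq2 1.42.0, limma-voom (limma 3.58.1), the normalized counts, no block, each replicate left out and, added after seeing the data, replicates 2 and 3 summed, and DESeq2 and limma-voom on those sums and without replicate 3.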

Additional observations from a re-analysis of the deposited data

How the results depend on the processing

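Entpd1, P2rx4, P2rx7, P2ry2 and Ada kept their direction in all 11 alternatives and their call except without replicate 2, without replicate 3 and with replicates 2 and 3 summed. The 4 that rose had adjusted p of 0.052 to 0.0817 there and log2 fold changes of 1.82 to 2.84, and Ada -1.47 to -1.70 (0.143 to 0.159). Adora3 was at -0.60 to 0.60 over the fits that left out 1 replicate, and turned negative with library totals alone (-0.20), by limma-voom (-0.05), without the replicate block (-0.12) and without replicate 1 (-0.60). The count of the 10 genes called higher was 0 to 5, and lower 0 to 4, over the fits that left out 1 replicate. It was 0 and 0 with replicates 2 and 3 summed, where 5 and 2 had an unadjusted p under 0.05, DESeq2 called 5 and 2 and limma-voom 3 and 0. Lower counts were 3 by DESeq2, 3 with no replicate block and 2 with library totals alone. Of the other purine genes, 21 of 52 tested were higher and 26 lower without replicate 1, against 37.1% and 35.8% of all tested genes. Without replicate 2 they were 1 and 0 of 51, against 0.917% and 1.18%, and without replicate 3 they were 0 and 0, against 0%. DESeq2 gave 11 and 19 of 51, against 23.4% and 25.1%, and no replicate block 11 higher, against 19.9%. The summed libraries gave 0 and 0 of 53 tested (7 and 10 unadjusted), against 0% of all genes. Over all genes, leaving out 1 replicate gave 0 to 5538 higher and 0 to 5352 lower. Library totals alone gave 1572 higher, and DESeq2 3665 lower. The summed libraries gave 0 and 0, with 2221 and 2267 at an unadjusted p under 0.05. Library totals shifted the median of all genes to -0.357. Each fit without a pair had fewer samples. The fit without replicate 1 called more genes than the main fit, and those without replicate 2 or replicate 3 called fewer. The causes of these changes were not tested. Counts of the 10 genes ran from 78 to 21370 per library.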

Other observations

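Genes that act after adenosine receptors, on the cyclic AMP list, moved in both directions. Of 28 tested members 3 rose and 7 fell, against 18.5% and 16.3% of all tested genes, with a median log2 fold change of -0.10. The phosphodiesterase genes, whose enzymes break down cyclic nucleotides, held 4 of the falls: Pde3b (-1.31 ± 0.28), Pde4c (-3.14 ± 0.75), Pde4d (-1.14 ± 0.26) and Pde7a (-1.97 ± 0.46), with edgeR adjusted p of 0.0377, 0.0467, 0.0433 and 0.0455. The others that fell were the cyclase gene Adcy6 (-3.25 ± 0.38), the exchange factor gene Rapgef4 (-3.17 ± 0.64) and the coactivator gene Crtc2 (-0.74 ± 0.18). Those that rose were the cyclase gene Adcy9 (1.23 ± 0.26) and the protein kinase A genes Prkaca (0.80 ± 0.10) and Prkar1b (3.55 ± 0.53). All 7 genes that fell were highest in negative replicate 1, from 4.52 CPM for Pde4c to 120 CPM for Crtc2, where the B and T cell lists were also highest (18250 and 232.6 CPM); their part was not tested.

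Among 8 genes linked to P2rx7 through the inflammasome, 1 rose and 1 fell, beside 18.5% and 16.3% of all tested genes. The gene that rose, Il18, was at 0 in all 3 negative libraries and at 0.291, 1.73 and 2.77 CPM in positive replicates 1, 2 and 3. It passed the count filter only through the positive libraries, with at most 131 counts in any of them, so no weight is placed on its call. Il1b fell (-0.74 ± 0.18, edgeR adjusted p = 0.0488), although its groups overlapped: it was at 16.8, 51.9 and 51.9 CPM in negative and 13.4, 27.0 and 27.2 CPM in positive replicates 1, 2 and 3.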
